A study of Mus musculus with 32 samples.

Results

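Oocytes arrested at metaphase II (MII) were compared with oocytes arrested at the germinal vesicle (GV) stage in B6xD2 F1 female mice, the hybrid offspring of the inbred strains B6 and D2. The members were the libraries labelled as B6xD2 F1, 5 of MII oocytes and 6 of GV oocytes, 11 of the 32 libraries in the series, which also holds 21 libraries of the parental strains at the same stages. Females were 8 to 12 weeks old. Each library was RNA-seq of a pool of 9 to 20 oocytes from a single mother, whose zonae pellucidae had been dissolved in acidified Tyrode's buffer. GV oocytes were collected in medium with IBMX, a phosphodiesterase inhibitor that keeps oocytes at the GV stage, and MII oocytes in the same medium without it, so stage and IBMX cannot be told apart. Whether females received hormones was not given in the sources used here. Batch 1 supplied 3 MII and 3 GV libraries, and batch 2, sequenced on another HiSeq model, supplied 2 MII and 3 GV libraries. Whether MII and GV pools came from the same females was not given in the sources used here, and no pairing was assumed. The test below used all 32 libraries in 6 groups of strain and stage, with a batch term. Its p-values therefore measure the spread between mothers over all 6 groups, including any difference of the stage change between batches.

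A GV oocyte is fully grown and arrested in prophase of meiosis. Its nucleus has largely stopped transcription, so it completes meiosis with stored maternal mRNA. At maturation, kinase activity around cyclin B and CDK1 breaks down the nuclear envelope, the spindle forms and moves to the cortex, and the egg arrests at MII until fertilization. Stored mRNAs are meanwhile polyadenylated and translated, or deadenylated and degraded. A short element near the end of the 3′ untranslated region, the cytoplasmic polyadenylation element (CPE), is bound by the protein CPEB1 and is known for its part in timing this switch.

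Read totals were 26.8 to 31.9 M in MII libraries and 18.7 to 39.7 M in GV libraries, and 17673 to 20908 genes had at least 1 read in MII libraries against 20166 to 24939 in GV libraries. Levels are given as CPM, counts scaled to a common library size, and in a principal component analysis of their log2 values the leading axis held 49.1% of the variance among the 11 libraries and placed all 5 MII libraries on 1 side of all 6 GV libraries. GV replicate 1 of batch 2 lay at −23.31 on that axis, nearer to the MII libraries, from −54.17 down, than to the other GV libraries, from 33.95 up. Of 25 markers of granulosa and cumulus cells, the somatic cells around the oocyte, 20 were called lower in MII by the test described below. Their mean log2 CPM was 0.747, 0.728 and 0.653 in the MII libraries of batch 1 and 1.05 and 0.974 in those of batch 2, against 4.09, 3.86 and 5.18 in the GV libraries of batch 1 and 1.48, 3.32 and 2.83 in those of batch 2. Every MII library lay below every GV library. Summed over the list, the level was 419 to 504 CPM in MII and 387 to 2541 CPM in GV, with overlap. The part of granulosa RNA in the results below was not tested beyond the values given. GV replicate 1 of batch 2 carried the least granulosa RNA of the GV pools, and results are therefore also given with it as the sole F1 GV library. They are also given with each library's mean marker level added to the model, called the granulosa covariate below. That level separated the F1 stages fully, so it overlaps with the stage change and can make its estimate less precise. Granulosa RNA and lower precision cannot be told apart where a call was lost with it. In such pools, fewer cells of a type and less RNA per cell cannot be told apart. Total RNA per oocyte and poly(A) tail length were not measured, so each change compares a transcript with the other RNA of its library.

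The CPE is shown here for some of the transcripts named below, picked because they hold it, so its frequency cannot be read from them. It was searched as TTTTAT or TTTTAAT on the transcript strand in the last 150 bases of 1 GENCODE vM21 transcript of each gene (the APPRIS principal one, then the best supported, then the longest), on GRCm38. A polyadenylation signal, AATAAA or ATTAAA, was required within the last 50 bases. TTTTAAT can overlap the signal, and the sites printed lie clear of it. The sites below are 30 bases long, 5′ to 3′, with the CPE in capitals. The first 8 come from transcripts called higher in MII, and the last pair, Dnmt1 and Hspe1, from transcripts called lower that hold the same letters.
Omt2b (chr9:78329555-78329584, plus strand): gggttttaacggTTTTATaataaataaaag
Tcl1 (chr12:105216797-105216826, minus strand): gaatgtgtgggaTTTTATgtggttctattt
Fubp3 (chr2:31617437-31617466, plus strand): taaagatgttctTTTTATttgactgacaat
Ccnb1 (chr13:100778775-100778804, minus strand): ctcatttgctgTTTTAATttatacatctga
Wee2 (chr6:40466757-40466786, plus strand): tttttaacataTTTTAATccagatcattgt
Fbxo43 (chr15:36150145-36150174, minus strand): gtatatatgtgtTTTTATactatacacaca
Wapl (chr14:34747832-34747861, plus strand): atcctatttttaTTTTATacagtatttctc
Dcp1a (chr14:30526985-30527014, plus strand): tttcatcctaaaTTTTATatgtttgcaaat
Dnmt1 (chr9:20907239-20907268, minus strand): gacttgatgtagTTTTATatgttgtaatat
Hspe1 (chr1:55091195-55091224, plus strand): tccatgcctcccTTTTATaataaacagatg
A match is a description of the letters and not a measured binding site. The site of Omt2a is identical to that of its neighbour Omt2b over these bases.

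The main comparison asked which transcripts differed between MII and GV in the hybrid. Many transcripts were modestly higher, and those that were lower were so by larger factors. By edgeR's quasi-likelihood test with batch as a term and Benjamini-Hochberg adjustment over 19003 genes, which gives every adjusted p here, 32.9% of genes were called at 0.05. Higher in MII were 14.9% of genes, and lower were 18.0%. The median log2 change was 0.54 among genes called higher and −2.73 among genes called lower, or −2.71 with the 416 genes at 0 in every MII library set to the bound that a floor of 3 counts over the group allows. At least 2-fold higher were 0.674% of genes, and at least 2-fold lower 15.1%. Over all genes the median was −0.09.

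Most genes called lower had little RNA in either group. Of the 3418, 1817 averaged under 5 CPM at both stages, 645 had at least 5 CPM in GV and less in MII, and 956 had at least 5 CPM at both. Among the 8972 genes with at least 5 CPM at both stages, 30.7% were higher and 10.7% were lower in MII, 75 and 434 of them by at least 2-fold, and the median change was 0.22. Every MII library lay above every GV library for 4.06% of all genes and below every GV library for 6.44%. Of the genes called higher 25.8% had no overlap between the groups, as had 33.9% of those called lower.

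Taken alone, both batches gave the same sign for 72.9% of all genes. Of the called genes, 2771 of 2826 higher and 3392 of 3418 lower ones had the same sign in both, which follows in large part from their being called on both batches together. Calls at the threshold in each batch separately numbered 282 higher and 707 lower in both, and 1 gene was called in opposite directions. GV replicate 1 of batch 2, the pool with little granulosa RNA, lay above both MII libraries of its batch for 72.6% of the genes called lower, against 35.0% of all genes. It lay below both for 93.9% of the genes called higher, against 35.4% of all genes. The libraries compared here were also in the fit that made the calls, which raises both shares, so they are no separate check.

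**Figure D1:**
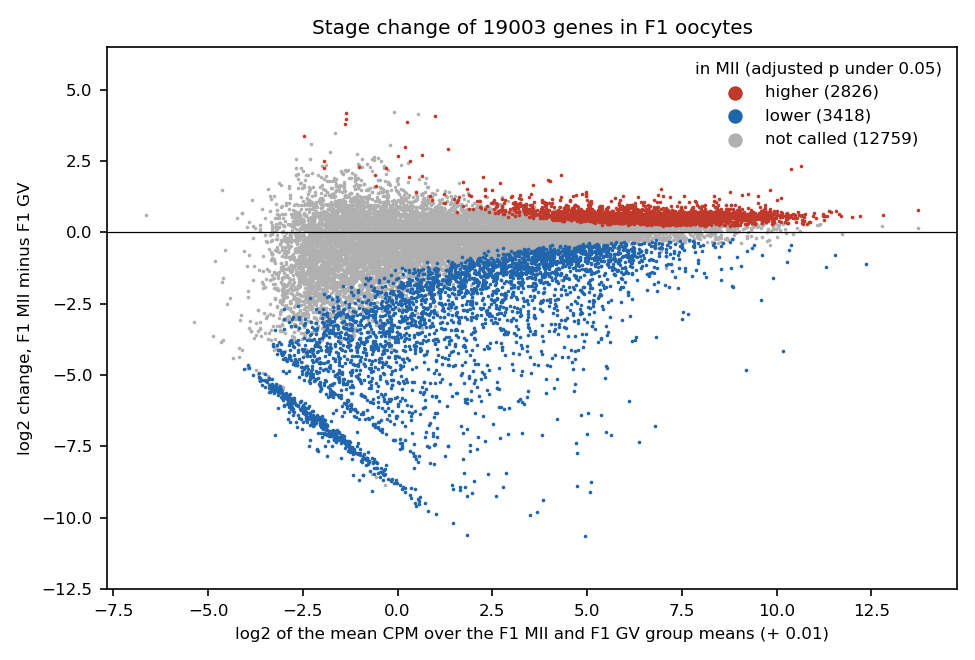
Log2 change of MII over GV oocytes of F1 females against mean level in log2 CPM for the 19003 genes tested, with genes called higher and lower in MII marked. Called rises crowd close to 0 at high levels, with a median of 0.54, and called falls spread far below, with a median of −2.73.

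The largest rises among genes with at least 5 CPM at both stages were in a small set of oocyte transcripts. MII values are given here and below in the order of the 3 libraries of batch 1 and the 2 of batch 2. Omt2b, an oocyte-specific transcript, had 2386, 2754, 3283, 2517 and 2214 CPM in MII oocytes, against 207 to 776 CPM with a median of 571 in GV oocytes. No MII library came near the GV range, and the log2 change was 2.34 ± 0.26 (SE; edgeR, adjusted p = 5.72e-08). Its neighbour Omt2a changed by 2.24 ± 0.24, and since the 2 genes are close copies whose reads can be assigned to either, the division of counts between them is uncertain. Nip7, a ribosome biogenesis factor, had 28.5, 18.3, 44.2, 35.4 and 33.8 CPM in MII oocytes, against 5.71 to 10.5 CPM with a median of 7.99 in GV oocytes. Again the groups were apart, at 2.00 ± 0.22 (edgeR, adjusted p = 1.95e-08).

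Mphosph6, which encodes an exosome-associated phosphoprotein, had 1071, 1091, 1412, 1641 and 1484 CPM in MII oocytes, against 342 to 561 CPM with a median of 497 in GV oocytes. Tcl1, a coactivator of the kinase AKT, had 806, 767, 763, 431 and 430 CPM in MII oocytes, against 130 to 371 CPM with a median of 218 in GV oocytes. Fubp3, which encodes a nucleic acid-binding protein, had 48.1, 42.2, 44.5, 55.1 and 40.0 CPM in MII oocytes, against 14.3 to 20.5 CPM with a median of 17.3 in GV oocytes. For each of these 3 genes all MII libraries lay above all GV libraries. The log2 changes were 1.49 ± 0.15 for Mphosph6, 1.41 ± 0.16 for Tcl1 and 1.40 ± 0.20 for Fubp3 (edgeR, adjusted p = 1.33e-09, 1.4e-08 and 2.71e-06). Tmem128 and Spint2, a protease inhibitor gene, rose by 1.84 ± 0.22 and 1.36 ± 0.26 with no overlap.

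Some rises were led by a single library. Ntm, a neural cell adhesion gene, had 54.6 CPM in MII replicate 5 of batch 1 and 5.01 to 12.4 CPM in the other MII libraries, against 3.45 to 9.01 CPM in GV oocytes. Tex19.1, a germ cell gene that restrains retrotransposons, had 378 CPM in that same library and 120 to 155 CPM in the others, against 16.1 to 148 CPM in GV oocytes. Ntm and Tex19.1 were called at 1.66 ± 0.42 and 1.52 ± 0.37, and the call for Ntm was lost without that library. Among genes under 5 CPM in GV, Efna1, which encodes an ephrin ligand, was higher in all 5 MII libraries, at 5.92 to 9.48 CPM, against 0.901 to 3.82 CPM in GV oocytes. Tcerg1l was apart too, at 3.39 to 12.4 CPM in MII and 1.91 to 3.23 CPM in GV. Gramd2, Fam81b and Idua were called higher, and each lost its call without MII replicate 5 of batch 1.

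Large falls at 5 CPM or more included genes of the ribosome and the respiratory chain. Khdc3, a gene of the subcortical maternal complex that early embryos need, had 12.6, 15.9, 19.6, 12.1 and 13.4 CPM in MII oocytes, against 75.8 to 359 CPM with a median of 216 in GV oocytes. The gap held in both batches, at −4.40 in batch 1 and −2.97 in batch 2 on the log2 scale, and the common estimate was −3.66 ± 0.24 (edgeR, adjusted p = 1.15e-13).

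Cox7c, a subunit of cytochrome c oxidase, had 19.6, 22.7, 8.18, 6.01 and 2.25 CPM in MII oocytes, against 72.2 to 209 CPM with a median of 132 in GV oocytes. Chchd2, a mitochondrial protein gene, and Sec61g, a subunit of the protein translocon of the endoplasmic reticulum, changed by −3.79 ± 0.27 and −3.58 ± 0.33. Neither overlapped between the groups. Malat1, a nuclear noncoding RNA, had 26.0, 29.8, 27.9, 103 and 37.6 CPM in MII oocytes, against 79.1 to 3129 CPM with a median of 710 in GV oocytes. Its lowest GV level was in the library with the least granulosa RNA, where it lay below 1 MII library of the same batch. Its fall of 4.81 ± 1.00 turned to 0.20 with the granulosa marker level as a covariate.

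**Figure D2:**
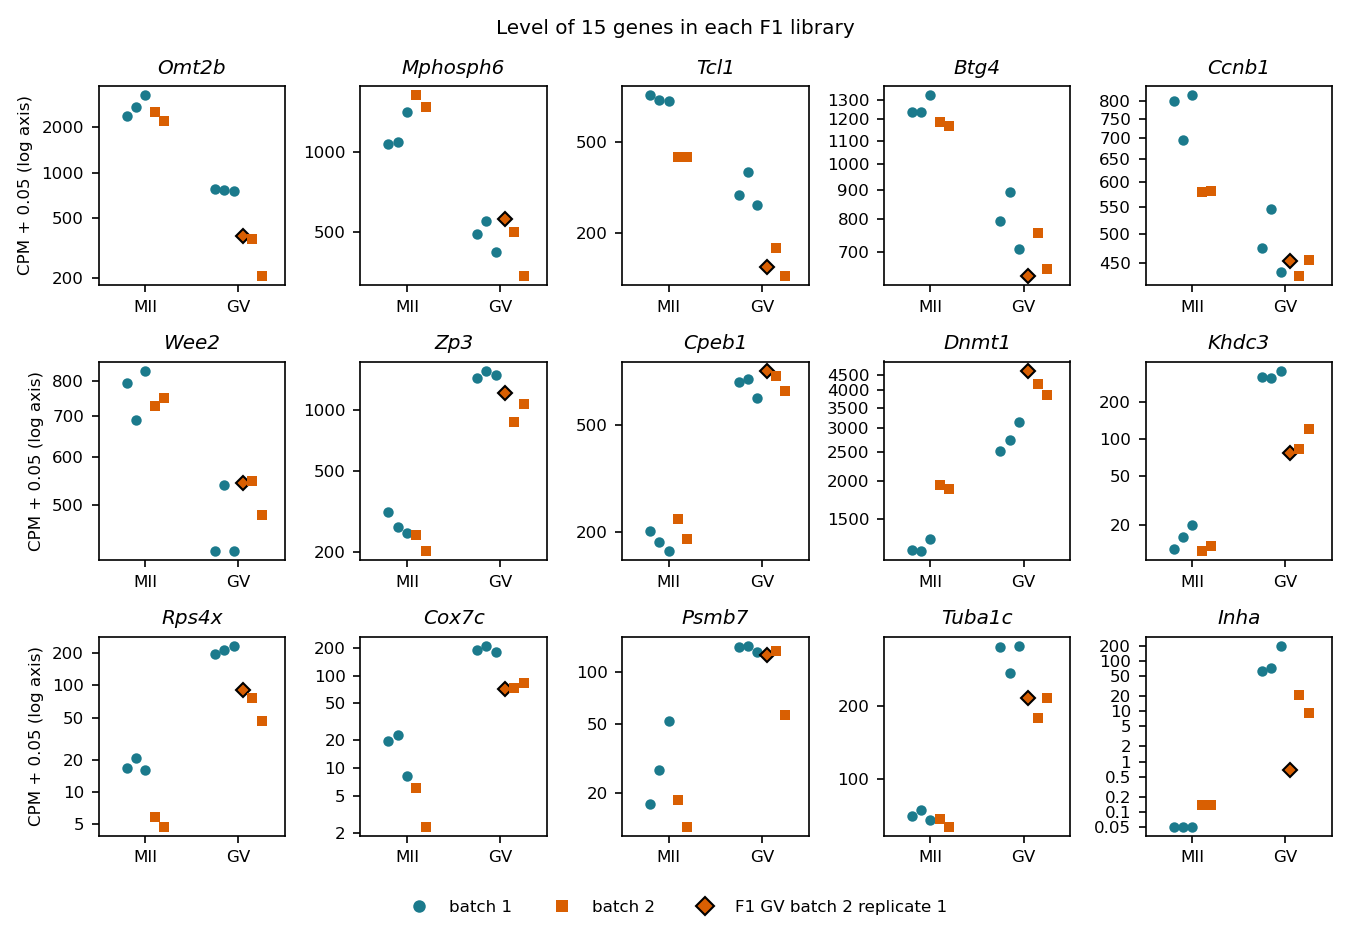
CPM plus 0.05 on a log axis for 15 genes in each F1 library, MII left and GV right, circles for batch 1, squares for batch 2 and a diamond for GV replicate 1 of batch 2. The stages do not overlap in any of the 15 panels, and the diamond stays with the other GV libraries for genes such as Zp3, Cpeb1 and Rps4x but lies closest to the MII libraries for the granulosa gene Inha.

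Counts in the lists that follow are to be read against the shares over genes with at least 5 CPM at both stages, 30.7% higher and 10.7% lower. Lists also hold members under 5 CPM, so the shares over all genes tested, 14.9% higher and 18.0% lower, apply beside them. In the respiratory chain list, 41 of 75 members had at least 5 CPM in MII. Over all genes, higher calls numbered 2826, and 377 in batch 2 alone, 689 with the granulosa covariate and 107 with GV replicate 1 of batch 2 as the sole F1 GV library.

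Of 20 genes that hold or release prophase arrest, 6 rose and 3 fell, with a median of 0.13, and the share that rose was close to the 30.7%. Wee2, an oocyte kinase that inhibits CDK1 and is later needed to leave MII, had 794, 689, 832, 727 and 750 CPM in MII oocytes, against 420 to 547 CPM with a median of 511 in GV oocytes. All MII libraries were above, by 0.63 ± 0.09 (edgeR, adjusted p = 1.31e-06). Prkar2a, a regulatory subunit of the cAMP-dependent kinase, rose by 0.66 ± 0.09. Pde3a, the phosphodiesterase whose activity lowers cAMP at the resumption of meiosis, rose by 0.36 ± 0.09 with overlapping groups. Its call was lost in each batch alone, with no batch term and with the granulosa covariate.

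Among CDK1, its cyclins and their regulators 8 of 19 rose and 2 fell, with a median of 0.31. The median was 0.03 in batch 2 alone and 0.20 with the granulosa covariate, each with 1 higher and 2 lower. Ccnb1, which encodes cyclin B1 and holds the CPE shown above, had 799, 697, 816, 579 and 581 CPM in MII oocytes, against 430 to 545 CPM with a median of 454 in GV oocytes. No MII library fell into the GV range, and the change was 0.52 ± 0.10 (edgeR, adjusted p = 9.23e-05). Ccna2, the cyclin A2 gene, and Cks1b, a small CDK-binding subunit, rose by 0.61 ± 0.11 and 0.68 ± 0.12 with no overlap. Cdk1 itself moved the other way, with 39.9, 37.0, 32.7, 20.1 and 19.7 CPM in MII oocytes, against 33.3 to 64.0 CPM with a median of 53.1 in GV oocytes. Its change was −0.90 ± 0.16 (edgeR, adjusted p = 6.51e-05), and 2 MII libraries lay within the GV range. With the granulosa covariate the calls for Ccnb1 and Ccna2 were lost.

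In the MOS and MAP kinase pathway, which holds MII arrest, 1 of 8 genes rose and 2 fell. Map2k1, a MAP kinase kinase, rose by 0.55 ± 0.10 and Map2k2, its close relative, fell by 0.95 ± 0.29. The call for Map2k2 was lost in each batch alone and with no batch term, where that for Map2k1 held. Of 20 genes of the anaphase-promoting complex and its regulators, 4 rose and 3 fell. Fbxo43, which encodes the inhibitor EMI2 that keeps the complex inactive at MII, had 244, 226, 215, 296 and 303 CPM in MII oocytes, against 149 to 201 CPM with a median of 168 in GV oocytes. Every MII library was above, at 0.62 ± 0.11 (edgeR, adjusted p = 3.67e-05). The genes of 2 small subunits, Anapc13 and Anapc11, fell by 3.58 ± 0.39 and 1.98 ± 0.30.

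Of 25 kinetochore and checkpoint genes, 10 rose and 3 fell, with a median of 0.28. It was 0.10 in batch 2 alone, with 3 higher and 1 lower, and 0.15 with the granulosa covariate, with 2 higher and 2 lower. Within the chromosomal passenger complex, the borealin gene Cdca8 rose and the survivin gene Birc5 fell. Cdca8 had 169, 204, 217, 199 and 212 CPM in MII oocytes, against 76.1 to 135 CPM with a median of 123 in GV oocytes. Birc5 had 171, 179, 149, 56.6 and 60.4 CPM in MII oocytes, against 144 to 463 CPM with a median of 319 in GV oocytes. The stages did not overlap for Cdca8, at 0.76 ± 0.16, and overlapped across but not within the batches for Birc5, at −1.54 ± 0.13 (edgeR, adjusted p = 0.000454 and 3.58e-11). The call for Cdca8 was lost with the granulosa covariate. Cenpa, the centromeric histone gene, rose by 0.74 ± 0.15, and the kinetochore gene Spc24 fell by 2.62 ± 0.37.

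Cohesin and its regulators rose where they were called. Of 17 genes, 8 rose and none fell, with a median of 0.44. Wapl, which releases cohesin from chromosomes, had 907, 781, 1067, 1098 and 1096 CPM in MII oocytes, against 445 to 871 CPM with a median of 572 in GV oocytes. MII libraries were higher but for 1 that lay within the GV range, and the change was 0.77 ± 0.12 (edgeR, adjusted p = 5.3e-06). Nipbl, the cohesin loader, rose by 0.66 ± 0.12, Sgo1, a shugoshin that protects cohesin at centromeres, by 0.84 ± 0.18, and the kleisin gene Rad21 by 0.49 ± 0.12. In batch 2 alone Sgo1 was called, and Wapl, Nipbl and Rad21 were not. Wapl kept its call with the granulosa covariate, and the other 3 did not. The list's median was 0.26 in batch 2 alone, with 1 higher, 0.26 with that covariate, with 2 higher, and 0.31 with GV replicate 1 of batch 2 as the sole F1 GV library, with 0 higher.

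Genes of spindle assembly split, with 9 of 26 higher and 5 lower and a median of 0.14. In batch 2 alone the median was −0.05, with 0 higher and 3 lower. Kif23, a kinesin of the spindle midzone, had 748, 747, 1005, 762 and 706 CPM in MII oocytes, against 505 to 615 CPM with a median of 549 in GV oocytes. Tacc3, a spindle microtubule stabiliser, had 381, 404, 422, 314 and 267 CPM in MII oocytes, against 525 to 721 CPM with a median of 642 in GV oocytes. Both were free of overlap, in opposite directions, at 0.51 ± 0.10 and −0.85 ± 0.11 (edgeR, adjusted p = 0.000167 and 4.72e-07). Nedd1, which recruits gamma-tubulin, rose by 0.56 ± 0.11. With the granulosa covariate Tacc3 was still called, and Kif23 and Nedd1 were not.

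Transcripts of the tubulins themselves fell. Of 14 tubulin genes 10 fell and 2 rose, with a median of −1.36, and for each of 10 genes all MII libraries lay below all GV libraries. Tuba1c, an alpha-tubulin gene, had 70.2, 73.9, 67.1, 68.2 and 63.0 CPM in MII oocytes, against 179 to 357 CPM with a median of 246 in GV oocytes. Tuba1a had 49.2, 44.9, 50.4, 49.5 and 48.4 CPM in MII oocytes, against 118 to 234 CPM with a median of 163 in GV oocytes. No MII library of either batch came near the GV range for either gene, and the changes were −1.96 ± 0.16 and −1.81 ± 0.17 (edgeR, adjusted p = 2.45e-11 and 3.43e-10). Tubulin genes are similar in sequence, and for the closest pair, Tuba3a and Tuba3b at −2.30 and −2.84, the split of reads is uncertain. The list's median was −1.45 with the granulosa covariate and −1.60 with GV replicate 1 of batch 2 as the sole F1 GV library.

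Of 23 genes of actin and spindle migration, 7 rose and 3 fell, again near the shares of 30.7% and 10.7% over genes with at least 5 CPM at both stages. Spire1, an actin nucleator of the cytoplasmic mesh, rose by 0.67 ± 0.12, Wasl, an activator of branched actin, by 0.67 ± 0.12 and the motor gene Myo5b by 0.50 ± 0.10. Arpc3, a subunit of the Arp2/3 complex, fell by 1.04 ± 0.22. The calls for Spire1, Wasl and Myo5b were lost with the granulosa covariate.

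Among 37 genes of translational control 12 rose and 8 fell, with a median of 0.09. In batch 2 alone 2 were higher and 5 lower, at a median of 0.02. Cpeb1, whose protein binds the CPE, had 202, 182, 169, 224 and 187 CPM in MII oocytes, against 636 to 802 CPM with a median of 736 in GV oocytes. The gap was wider than the spread within either stage, at −1.92 ± 0.11 (edgeR, adjusted p = 3.75e-15). Its relative Cpeb4 had 337, 265, 236, 306 and 479 CPM in MII oocytes, against 161 to 239 CPM with a median of 201 in GV oocytes, and rose by 0.72 ± 0.10. Zar1l, an RNA-binding maternal factor gene, fell by 1.14 ± 0.15 and the poly(A)-binding protein gene Pabpc1 by 1.88 ± 0.29. Pabpc1 lost its call with the granulosa covariate.

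Of 34 genes of mRNA decay 14 rose and 4 fell, with a median of 0.30. Over genes with at least 5 CPM at both stages 30.7% rose and 10.7% fell, and the difference from those shares was not tested. Btg4, the adaptor that brings the CCR4-NOT deadenylase to maternal mRNA, had 1238, 1239, 1325, 1186 and 1166 CPM in MII oocytes, against 635 to 893 CPM with a median of 732 in GV oocytes. Cnot6l, a catalytic subunit of that deadenylase, had 1406, 1006, 1406, 1256 and 1125 CPM in MII oocytes, against 590 to 865 CPM with a median of 740 in GV oocytes. Both genes were higher in all MII libraries, at 0.72 ± 0.11 and 0.75 ± 0.13 (edgeR, adjusted p = 7.98e-06 and 3.08e-05). Of the decapping genes, Dcp1a had 2764, 2776, 3144, 3963 and 4372 CPM in MII oocytes, against 1532 to 3071 CPM with a median of 2124 in GV oocytes. Dcp1a overlapped across batches and not within them, at 0.73 ± 0.09, and Dcp2 rose by 0.60 ± 0.09. The list's median was 0.15 in batch 2 alone, with 5 higher and 3 lower, 0.30 with the granulosa covariate, with 7 higher and 2 lower, and 0.34 with GV replicate 1 of batch 2 as the sole F1 GV library, with 2 higher and 0 lower.

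Of 18 genes of the subcortical maternal complex and the oocyte NLRP family, 6 rose and 5 fell, with a median of 0.23. With the granulosa covariate 1 was higher and 6 were lower, at a median of −0.05, and in batch 2 alone the counts were the same, at −0.12. Next to Khdc3, described above, the fallers were led by Nlrp14, Tle6 and Padi6, at −1.03 ± 0.11, −1.08 ± 0.12 and −0.79 ± 0.10. For each of them every MII library lay below every GV library.

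Of 30 chromatin factors stored for the embryo, 16 rose and 6 fell, with a median of 0.38. Dnmt1, the maintenance DNA methyltransferase, was among the lower ones, with 1181, 1171, 1286, 1941 and 1887 CPM in MII oocytes, against 2524 to 4651 CPM with a median of 3498 in GV oocytes. Levels were higher in batch 2 at both stages, and the stages stayed apart, at −1.20 ± 0.13 (edgeR, adjusted p = 1.41e-08). Tet3, the dioxygenase that oxidises 5-methylcytosine, rose by 0.58 ± 0.10, the histone methyltransferase gene Nsd1 by 0.75 ± 0.09 and Zfp57, which keeps imprints, by 0.56 ± 0.10, and of these Zfp57 lost its call with the granulosa covariate. The list's median was 0.07 in batch 2 alone and 0.19 with the granulosa covariate, each with 2 higher and 4 lower.

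Genes of the egg coat and sperm binding fell. Of 7 genes 5 fell and none rose, with a median of −1.10. The median was −1.04 in batch 2 alone and −0.77 with the granulosa covariate, each with 4 lower. It was −0.63 with GV replicate 1 of batch 2 as the sole F1 GV library. Zp3, a structural protein of the zona pellucida, had 312, 266, 248, 241 and 200 CPM in MII oocytes, against 869 to 1563 CPM with a median of 1327 in GV oocytes. Zp2 had 201, 195, 180, 194 and 213 CPM in MII oocytes, against 537 to 852 CPM with a median of 732 in GV oocytes. Zp1 had 605, 594, 615, 461 and 444 CPM in MII oocytes, against 630 to 864 CPM with a median of 793 in GV oocytes. The 3 zona genes thus fell by different amounts, −2.37 ± 0.15 for Zp3, −1.86 ± 0.14 for Zp2 and −0.55 ± 0.12 for Zp1 (edgeR, adjusted p = 2.57e-14, 1.44e-12 and 0.000625), and the differences between them were not tested. Astl, the protease that cleaves ZP2 after fertilization, fell by 1.10 ± 0.19.

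Oocyte-secreted factors split within a family. Oosp1 had 1571, 1548, 1713, 1144 and 1158 CPM in MII oocytes, against 390 to 972 CPM with a median of 573 in GV oocytes. Oosp2 had 72.0, 81.7, 70.1, 44.6 and 43.1 CPM in MII oocytes, against 81.3 to 232 CPM with a median of 155 in GV oocytes. Oosp1 rose without overlap by 1.15 ± 0.15 and Oosp2, with 1 MII library inside the GV range, fell by 1.42 ± 0.18 (edgeR, adjusted p = 3.52e-07 and 2.38e-07). Of the 7 genes 2 rose and 1 fell, and Gdf9 and Bmp15, the growth factors by which oocytes act on granulosa cells, were at −0.07 and 0.27 without passing. Among 11 oocyte transcription factors, Foxo3 and Lhx8 rose by 0.52 ± 0.09 and 0.58 ± 0.12, and Figla, at 1.17 to 5.53 CPM in MII and 3.34 to 11.2 CPM in GV, fell by 1.34 ± 0.34. Foxo3 and Lhx8 were not called with the granulosa covariate. Pou5f1 fell by 0.51 ± 0.19, a call that was lost without any of 6 single libraries.

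Of 23 genes of egg activation, the calcium response at fertilization, 7 rose and 2 fell, with a median of 0.01, shares near the 30.7% and 10.7% over genes with at least 5 CPM at both stages. With the granulosa covariate 1 was higher and 0 lower, and in batch 2 alone none was called. Atp2a2, the calcium pump of the endoplasmic reticulum, had 942, 832, 1042, 1258 and 1438 CPM in MII oocytes, against 509 to 984 CPM with a median of 666 in GV oocytes. It rose by 0.73 ± 0.10 with overlap, and the calcium release channel gene Itpr1 by 0.50 ± 0.11. Of 34 genes of the nuclear pore and lamina, which is taken apart at the start of maturation, 14 rose and 4 fell, with a median of 0.31. The median was 0.12 in batch 2 alone, 0.18 with the granulosa covariate and 0.16 with the sole GV library, with 4, 4 and 0 higher calls. Averaged over that list, log2 CPM was 6.37 to 6.44 in MII libraries and 6.18 to 6.31 in GV libraries. The nucleoporin gene Nup62 rose by 0.55 ± 0.10 without overlap and Aaas fell by 1.08 ± 0.19. Itpr1 and Nup62 were not called with the granulosa covariate. Among 41 spliceosome genes 10 rose and 8 fell, or 1 and 4 with the granulosa covariate. Snrpe was higher by 1.18 ± 0.22 and Snrpd2, another core protein of the same particles, lower at −3.68 ± 0.49. Both calls were lost in batch 2 alone, and that for Snrpe also with no batch term.

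Transcripts of the ribosome and of oxidative phosphorylation fell nearly throughout. Of 79 cytosolic ribosomal protein genes 77 fell and none rose, with a median of −2.79, and in 54 every MII library lay below every GV library. Rps4x had 16.9, 20.8, 16.0, 5.75 and 4.68 CPM in MII oocytes, against 46.2 to 234 CPM with a median of 144 in GV oocytes. Rps13 had 2.60, 1.59, 1.01, 0.173 and 0.347 CPM in MII oocytes, against 22.9 to 157 CPM with a median of 78.7 in GV oocytes. The stages stayed far apart for both genes, at −3.66 ± 0.19 and −6.39 ± 0.37 (edgeR, adjusted p = 3.85e-16 and 2.47e-14). The exceptions were Rpl4, at 0.11, and Rps14, at −1.68, which did not pass. Many ribosomal protein genes have processed pseudogenes that can take their reads, so single counts are uncertain.

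Averaged over the ribosomal list, log2 CPM was 3.54, 3.78 and 3.19 in MII libraries of batch 1 and 2.72 and 2.59 in those of batch 2, against 6.38, 6.57 and 6.94 in GV libraries of batch 1 and 4.79, 4.87 and 4.68 in those of batch 2. In batch 2 the granulosa-poor GV library, at 4.79, sat between the other GV libraries. The list's median was −2.03 with the granulosa covariate and −2.49 with that library as the sole F1 GV library.

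Among nuclear respiratory chain genes 66 of 75 fell and none rose, with a median of −1.90 and no overlap in 41. Atp5e, a small subunit of ATP synthase, had 2.60, 2.95, 1.81, 1.30 and 0.996 CPM in MII oocytes, against 14.1 to 102 CPM with a median of 58.5 in GV oocytes. Atp5k had 1.32, 1.11, 0.977, 0.346 and 0.303 CPM in MII oocytes, against 8.45 to 62.5 CPM with a median of 33.3 in GV oocytes. No MII library reached the lowest GV library for either gene, and the changes were −4.79 ± 0.32 and −5.45 ± 0.40 (edgeR, adjusted p = 1.54e-13 and 1.44e-12). Members that did not pass included Sdha at 0.26 and Ndufs1 at −0.34, which encode large subunits of complexes II and I. The list's median was −1.89 with the granulosa covariate and −2.01 with GV replicate 1 of batch 2 as the sole F1 GV library.

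Of 78 mitochondrial ribosomal protein genes 33 fell and 3 rose, with a median of −0.58, and Mrpl28 fell by 3.23 ± 0.42. In batch 2 alone 10 of them were lower, and with the granulosa covariate 20, at medians of −0.55 and −0.54. The median was −0.64 with GV replicate 1 of batch 2 as the sole F1 GV library. Of 38 proteasome genes 21 fell and 4 rose, with a median of −0.52. Psmb7, a catalytic subunit of the core particle, had 17.2, 27.2, 52.2, 18.1 and 12.7 CPM in MII oocytes, against 56.5 to 141 CPM with a median of 132 in GV oocytes. It fell by 2.35 ± 0.22, and the core genes Psma3, Psmb4 and Psmb1 by 2.17, 2.83 and 2.20. The 4 that rose were the regulatory subunit genes Psmd1 and Psmd3 and the activator genes Psme3 and Psme4, at 0.62 to 0.64, named after their values were seen.

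Of 19 glycolysis genes 8 fell and none rose, with a median of −0.54, among them Pkm at −0.54 ± 0.14, with Ldha at 0 to 0.910 CPM in MII and 0.795 to 24.9 CPM in GV. With the granulosa covariate the median was −0.11 with 1 lower call, and Pkm and Ldha were not called. Lower calls numbered 0 in batch 2 alone and 1 with GV replicate 1 of batch 2 as the sole F1 GV library. Of 26 redox enzymes 12 fell and none rose, including the glutaredoxin gene Glrx5 at −2.79 ± 0.28 and the glutathione peroxidase gene Gpx4 at −3.31 ± 0.55. The redox median was −0.81, and −0.09 with the granulosa covariate, where 4 were lower, while batch 2 alone gave 3 lower calls. Of 23 genes of cholesterol synthesis 3 rose and 4 fell, with Idi1, an isoprenoid enzyme, higher by 0.83 ± 0.16 and Fdps, the next step, lower by 2.12 ± 0.41. With the granulosa covariate 3 of that list were higher and 0 lower, and in batch 2 alone none was called. Fdps thus lost its call in both settings, and Idi1 in batch 2 alone. Of 22 heat shock and immediate early genes 2 rose and 4 fell. Hspe1, the mitochondrial chaperonin partner whose CPE is shown above, had 16.6, 17.0, 12.8, 8.34 and 8.84 CPM in MII oocytes, against 26.7 to 65.9 CPM with a median of 47.1 in GV oocytes, and fell by 1.92 ± 0.17 with no overlap.

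**Figure D3:**
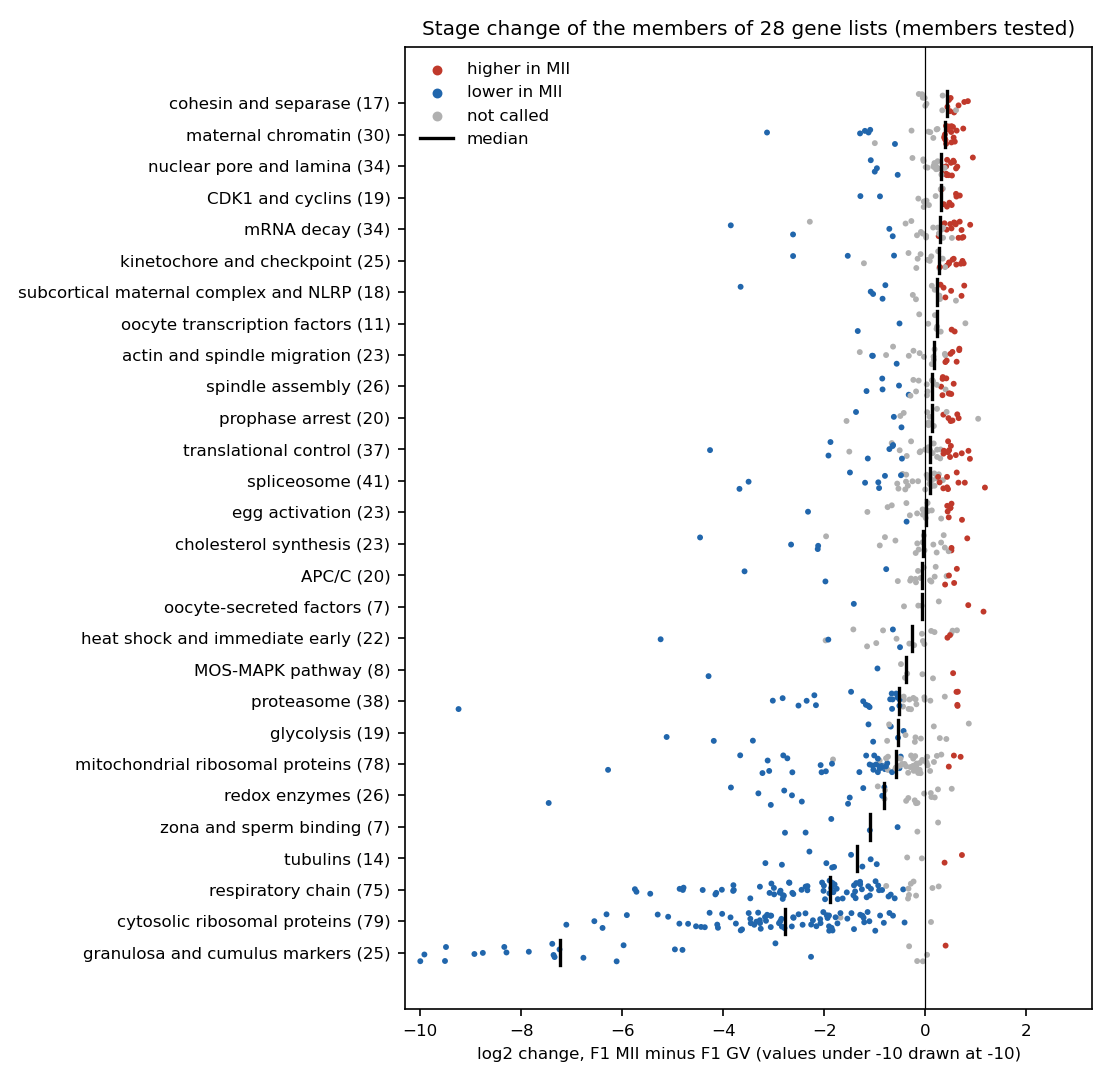
Log2 change of MII over GV oocytes of F1 females for each tested member of the gene lists, 1 row a list, with the list's median as a bar. Ribosomal and respiratory chain genes lie almost wholly below 0, with medians of −2.79 and −1.90, while cohesin and chromatin lists centre slightly above 0, at 0.44 and 0.38.

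Markers of other cells fell as well. The granulosa list had a median of −7.24, or −6.09 with the 6 markers at 0 in every MII library set to their bound, and 1 of its 25 genes, Serpine2, rose by 0.40. Its median was −5.07 in batch 2 alone, with 4 lower, and −1.64 with GV replicate 1 of batch 2 as the sole F1 GV library. Inha, an inhibin subunit, had 0, 0, 0, 0.0864 and 0.0867 CPM in MII oocytes, against 0.636 to 199 CPM with a median of 42.5 in GV oocytes. The groups did not overlap, although the granulosa-poor GV library was under 1 CPM. Of genes at 0 in every MII library, Wt1, a granulosa transcription factor, was at least 130-fold lower in MII than in GV against a floor of 3 counts over the MII group. The stroma and theca genes Col3a1 and Cyp17a1 were at least 240-fold and 178-fold lower, and Mgarp, a mitochondrial protein of steroid-producing cells, at least 310-fold. These bounds use the mean of the GV pools, which differed widely in granulosa marker level, and do not count the spread between pools. The call for Cyp17a1 was lost in batch 2 alone and with the granulosa covariate. Of 13 genes of expanded cumulus, the cells that surround an ovulated oocyte, 8 could be tested, none rose and 4 fell. The list's median was −2.70, or −2.19 with the 2 genes at 0 in every MII library set to their bound, and 0.67 with GV replicate 1 of batch 2 as the sole F1 GV library. Of those 4, Adamts1, Vcan and Cd44 had a positive change with GV replicate 1 of batch 2 as the sole F1 GV library. Of 19 tested markers of stroma, vessels and blood 8 fell and 1, Pecam1, rose by 0.50. Their median was −5.35, or −3.16 with the 7 markers at 0 in every MII library set to their bound. It was −0.90 in batch 2 alone, with 2 lower, and 0.35 with the granulosa covariate. With GV replicate 1 of batch 2 as the sole F1 GV library it was −1.10.

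The share of genes called differed with transcript length. Genes with at least 5 CPM at both stages and a matched transcript were put into 5 equal groups by length. Of the group with the shortest transcripts, 287 to 1893 bases, 16.8% were higher in MII and 27.6% were lower. In the following groups 25.2%, 32.2% and 37.4% were higher and 9.92%, 6.43% and 4.21% lower. In the group with the longest transcripts, from 5325 bases up, 45.1% were higher and 3.73% lower. The rise with length did not hold under every setting. In batch 2 alone 3.85% of the longest and 4.15% of the shortest group were higher, with the granulosa covariate 11.7% and 5.29%, and with GV replicate 1 of batch 2 as the sole F1 GV library 1.2% and 1.5%. Lower were 1.56% and 15.9% in batch 2 alone, 1.56% and 20.5% with the covariate and 0.481% and 13.7% with the sole GV library, with the shortest group ahead each time. The median transcript had 3964 bases among genes called higher and 1799 among those called lower, against 3268 among all. Leaving out the ribosomal, respiratory chain and proteasome lists, the shortest group had 18.5% higher and 22.7% lower. Base composition moved too, with 42.1% of the group lowest in G and C higher in MII, against 17.2% of the group highest in them, again among 5. Whether reads per length, base composition or the amplification took part was not tested.

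The CPE was more frequent in transcripts that rose. In the same set, of transcripts with a polyadenylation signal, it was present in 36.5% of those higher in MII (741 of 2030), in 18.5% of those lower (95 of 513) and in 25.9% of those not called, against 28.8% of all. With motifs overlapping the signal left out the shares were 33.5%, 17.2%, 24.2% and 26.7%. Transcripts with no CPE were higher in MII in 29.8% of cases and lower in 9.66%. With 1 CPE the shares were 40.1% and 6.05%, with 2 they were 48.4% and 3.25%, and with 3 or more they were 58.3% and 2.78%, the last over 72 genes.

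The last 150 bases were also richer in A and T where the motif was more frequent, at a median of 62.0% with no CPE and 73.3% with 3 or more. Within 3 equal groups of A and T content, from low to high, transcripts with the CPE were higher in MII in 33.6%, 40.5% and 45.3% of cases, against 21.5%, 31.8% and 41.2% without it. Within 3 equal groups of transcript length, from short to long, the shares were 36.6%, 40.8% and 49.0% with the CPE and 17.9%, 31.1% and 40.7% without it. The difference in each group thus ran the same way, and was smallest where A and T content was highest. These shares are across genes, which are not independent replicates.

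**Figure D4:**
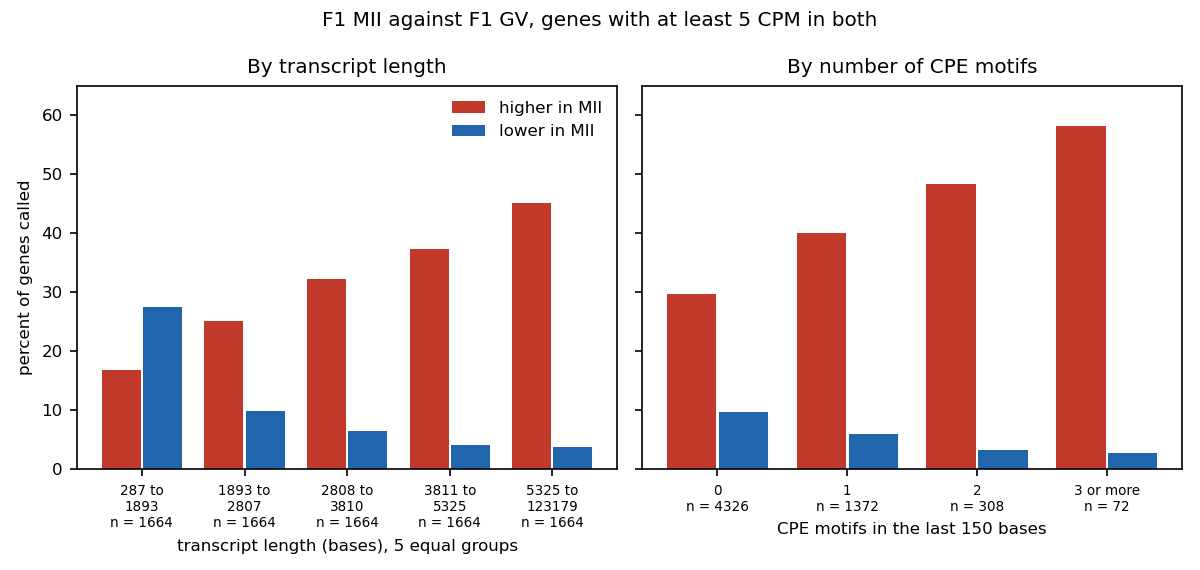
Percent of genes called higher and lower in MII over GV among genes with at least 5 CPM at both stages, in 5 equal groups of transcript length in bases (left) and by number of CPE motifs in the last 150 bases (right), with the number of genes under each pair of bars. The share higher in MII grows with length, to 45.1%, and with the number of motifs, to 58.3%, while the share lower shrinks.

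The last comparison asked whether the stage change in the hybrid differed from the mean of the changes in its parents. It was called for 1 gene of 19003, 0.00526%, while 1011 genes were under an unadjusted p of 0.05, 5.32% of those tested. The median difference was −0.0046 on the log2 scale.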

How the data were processed

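Values were raw read counts of genes in 32 libraries, as deposited by the authors. Per the labels' protocols, RNA was column purified, DNase treated, amplified by SPIA (single primer isothermal amplification), sheared, given 12 PCR cycles and read as 50 nt single reads. Per the submitters' processing notes, HISAT2, SAMtools, featureCounts of Subread 1.5.1, DESeq2 1.16.1 and GRCm38.p4 were used. How featureCounts treated strand and multi-mapping reads is not given in the sources used here, so counts of close copies and of overlapping antisense genes are uncertain. The 3 entries that named no gene were left out and 37441 were kept.

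Genes were filtered with filterByExpr and given TMM scaling factors, and CPM values use those scaled library sizes. edgeR's robust quasi-likelihood model had 6 groups and batch as terms. It was read for F1 MII minus F1 GV, and for that change minus the mean of the parents' changes. Tests were two-sided with Benjamini-Hochberg adjustment and a threshold of 0.05. Members and lists were chosen with earlier results of these data known. Named genes were the 10 largest called changes in each direction with at least 5 CPM in both groups and the same sign in both batches, the 5 largest that crossed 5 CPM, and in each list as many as 4 called members, taken by adjusted p. A gene that this rule chose is not reported here. Other list members are named after their values were seen. List levels are means of log2(CPM + 0.5).

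Transcripts were from GENCODE vM21 on GRCm38, and 98.2% of tested protein-coding genes matched. Reads carried no molecular identifiers, so a floor is for counting error alone, and no replicate pair was alike within sampling noise. The model was fitted in edgeR 4.0.16 in R 4.3.3, and alternatives in limma 3.58.1 and DESeq2 1.42.0. Tables and figures were made in Python 3.11.15 with pandas 2.3.3, numpy 2.4.6 and matplotlib 3.10.9.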

Additional observations from a re-analysis of the deposited data

Results flagged for a closer look

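Of 344 sets of values examined, each a gene or list in the F1 MII or the F1 GV libraries on a log2 scale, 14 held a library whose gap to its nearest neighbour was large for the range of the group. Chance alone gives such a library in about 5% of sets.

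In MII oocytes, replicate 5 of batch 1 stood apart for 4 genes. It had 378 CPM of Tex19.1, against 120 to 155 in the other MII libraries, 13.8 CPM of Fam81b, against 2.44 to 3.73, and 1005 CPM of Kif23, against 706 to 762. It also had 0.0724 CPM of Col1a2, which was at 0 in the others. With the others tied at 0 any read sets a library apart, so Col1a2 carries no information here. Replicate 4 of batch 1 had 472 CPM of Oosp3, against 794 to 950. In batch 2, replicate 1 had 103 CPM of Malat1, against 26.0 to 37.6, and replicate 2 had 184 CPM of Egr1, against 140 to 149.

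In GV oocytes, replicate 3 of batch 2 had 76.1 CPM of Cdca8, against 116 to 135 in the other GV libraries, 103 CPM of Zar1l, against 174 to 233, and 56.5 CPM of Psmb7, against 126 to 141. Replicate 2 of batch 2 had 246 CPM of Pkm, against 124 to 146, and replicate 1, the granulosa-poor library, 242 CPM of Hmgcs1, against 330 to 382. Replicate 5 of batch 1, the library with the highest granulosa marker level, had 143 CPM of Pabpc1, against 53.7 to 69.0, and a mean log2 CPM of 4.74 over the glycolysis list, against 3.63 to 3.94.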

How the results depend on the processing

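Of 142 named genes, 54 were called in the same direction under every alternative run, among them Omt2b, Mphosph6, Tcl1, Btg4, Zp3, Zp2, Cpeb1, Dnmt1, Khdc3, Tuba1c, Rps4x and Psmb7. Calls were lost for 60 in batch 2 alone, 44 with the granulosa covariate, 78 with GV replicate 1 of batch 2 as the sole F1 GV library and 18 with the replicate block. The 6244 calls became 1251 in batch 2 alone, 3566 with no batch term, 1835 with the granulosa covariate, 760 with that sole GV library and 2993 at 2-fold or more. The 2826 higher calls became 1845 in batch 1 alone, 377 in batch 2 alone, 1188 with no batch term, 689 with the covariate, 107 with the sole GV library and 128 at 2-fold. The 3418 lower calls became 874 in batch 2 alone, 2140 with a filter of 1 CPM in 16 libraries, where fewer genes were tested, 1146 with the covariate and 653 with the sole GV library. The setting with a sole GV library was chosen after seeing the data and assumes that it varies like the other groups. Smaller counts in batch 2 and with the sole library come with fewer samples. Those with the covariate come with a term that separated the F1 stages. The cause was otherwise not tested. Calls ran from 5151 to 6176 with each library left out, and 8 named genes lost theirs in some of these fits, namely Gramd2, Pou5f1, Ereg, Ldhb, Idua, Ntm, Fam81b and Aldoc. Signs turned for Malat1 (0.20), Vcan (1.73) and Cd44 (0.81) with the covariate, and for Jun (3.32), Cd44 (3.03), Adamts1 (0.21) and Vcan (0.16) with the sole GV library. Against the parents, 1 gene was called, with 12 in DESeq2, 1 in limma-voom, and 0 with no batch term or with the sole GV library. Other scalings moved the median of all genes from −0.09 to at most −0.14. Over 25 alternatives, the CPE was in 36.3% to 55.8% of genes higher in MII and in 15.8% to 19.5% of those lower.

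With replicate numbers as a block, 3425 genes were called, 1540 higher and 1885 lower. The labels do not say that the numbers pair the females, and same-numbered MII and GV libraries correlated at −0.01 to 0.02 in their deviations from group means.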
